A study of Mus musculus with 3 samples.

Results

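Listed GLI3 peaks lying near a promoter but outside it were described in E10.5 mouse forelimb buds. The upstream and the downstream side of the transcription start site (TSS) were described separately. A region belonged to this set when its summit, the position of strongest signal, was more than 1 kb and at most 10 kb from the nearest TSS of a protein-coding transcript and not in an exon. The rule gave 2034 of 17149 listed peaks, which is 12.1% of the 16854 listed peaks on autosomes. Of these, 903 lay upstream of their TSS and 1131 downstream. A further 333 peaks at the same distances had a summit in an exon and were set aside, as were 290 peaks on chromosomes X and Y and 5 on unplaced sequence. Distances used the basic set of GENCODE M21 on the mm10 build, and each peak was assigned to the gene of its nearest TSS, which does not show that GLI3 acts on that gene.

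ChIP-seq sequences the DNA recovered from fixed chromatin with an antibody, here against a FLAG tag on the endogenous GLI3 protein. The series holds 3 libraries: 2 GLI3-FLAG ChIP replicates and 1 input library of chromatin that was not immunoprecipitated. All came from forelimb buds of embryos at 32 to 35 somites on a mixed background, with 2 litters pooled for each ChIP and 15 PCR cycles per library. The genotype label of these samples reads wild type although the series describes the tagged Gli3 allele, and there is no ChIP from untagged limbs among the libraries. The peaks come from 1 list, treated as a joint call on both replicates, so no value below has a replicate error and every test describes peaks of this list, not the variation between embryos. Whole limb buds mix mesenchyme and ectoderm, so a weaker peak and a peak in fewer cells cannot be told apart.

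GLI3 is a zinc finger transcription factor of the Hedgehog (HH) pathway. In the limb bud, HH signalling from the posterior mesenchyme prevents the processing of GLI3 into a truncated repressor, and the balance of GLI3 forms sets the number and identity of digits. GLI proteins recognise a short DNA consensus, and DNA beside a promoter can hold regulatory sequence, the start of a first intron, alternative TSSs and the edges of a CpG island, a GC-rich stretch that keeps many CpG dinucleotides.

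The sequences under the highest ranked members fell into those with a GLI match and those without. A GLI match was GACCACCCA, the GLI consensus, or TGGGTGGTC on the opposite strand, with at most 1 mismatch, lying within 250 bp of the summit. It was found in 12 of the 30 members made up of the 15 highest ranked on each side, which were picked for their rank. The share was 20.5% over all members and 17.9% over all listed autosomal peaks. The downstream members with a match are shown first, as the plus strand of mm10 read 5′ to 3′, with the match nearest to the summit in capitals. Windows that touch an annotated exon are kept short.
Ier2, rank 1, chr8:84656164-84656224: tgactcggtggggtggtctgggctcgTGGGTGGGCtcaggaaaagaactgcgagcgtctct
Micall2, rank 23, chr5:139724770-139724830: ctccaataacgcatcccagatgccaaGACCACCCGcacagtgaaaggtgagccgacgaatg
Hsd11b2, rank 30, chr8:105519938-105519998: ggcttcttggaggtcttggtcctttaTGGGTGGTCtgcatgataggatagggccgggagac
Dact3, rank 51, chr7:16876668-16876728: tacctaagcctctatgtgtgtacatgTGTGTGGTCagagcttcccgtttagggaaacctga
Adamts1, rank 70, chr16:85801399-85801427: gccaagcaaaGACCTCCCAagcaggttct
4430402I18Rik, rank 100, chr19:28908416-28908476: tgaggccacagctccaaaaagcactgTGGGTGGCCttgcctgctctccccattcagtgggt
Foxs1, rank 133, chr2:152925669-152925729: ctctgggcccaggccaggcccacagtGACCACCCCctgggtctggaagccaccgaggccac

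The upstream members of the same kind follow, with the same use of capitals. The Ptch1 match is the exact consensus, read here on the minus strand.
Ptch1, rank 19, chr13:63573455-63573483: gccctcggcgTGGGTGGTCtgccgcgcca
Spen, rank 77, chr4:141545913-141545973: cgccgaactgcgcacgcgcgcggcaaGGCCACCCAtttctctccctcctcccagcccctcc
Hoxd12, rank 119, chr2:74673894-74673954: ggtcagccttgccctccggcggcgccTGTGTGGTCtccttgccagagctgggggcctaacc
Tmem119, rank 158, chr5:113808223-113808283: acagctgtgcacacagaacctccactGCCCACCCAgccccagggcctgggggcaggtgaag
Igf2bp1, rank 222, chr11:96007254-96007314: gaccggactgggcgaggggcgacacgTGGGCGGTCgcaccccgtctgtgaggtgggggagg

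The exact consensus was also present at weaker members. The one at Foxf1, which encodes a forkhead factor of mesenchyme beside HH-expressing epithelia, is shown in the same way.
Foxf1, rank 1114, chr8:121080805-121080865: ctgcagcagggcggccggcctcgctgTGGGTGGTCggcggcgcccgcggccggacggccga

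Of the 18 highest ranked members without a GLI match, 14 met the CpG island definition given below. The bases within 100 bp of 3 such summits are shown for comparison, with each CG dinucleotide in capitals.
Hes1, rank 194, chr16:30064162-30064362: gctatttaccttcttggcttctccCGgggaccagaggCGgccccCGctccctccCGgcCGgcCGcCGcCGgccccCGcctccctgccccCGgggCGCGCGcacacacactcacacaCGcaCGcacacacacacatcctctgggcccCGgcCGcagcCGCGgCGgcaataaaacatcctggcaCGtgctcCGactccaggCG
Cdk6, rank 48, chr5:3342497-3342697: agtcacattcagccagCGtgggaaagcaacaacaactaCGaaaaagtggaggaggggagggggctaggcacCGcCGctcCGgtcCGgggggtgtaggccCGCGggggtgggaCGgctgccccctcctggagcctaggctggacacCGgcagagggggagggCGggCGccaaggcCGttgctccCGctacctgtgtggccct
Id2, rank 215, chr12:25098572-25098772: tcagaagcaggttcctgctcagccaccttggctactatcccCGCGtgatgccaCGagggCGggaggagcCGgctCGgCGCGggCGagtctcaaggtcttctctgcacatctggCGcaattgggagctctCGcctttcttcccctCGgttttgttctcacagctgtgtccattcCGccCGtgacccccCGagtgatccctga

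The highest ranked downstream member was also the highest ranked peak of the whole list. It lay 6605 bp past the TSS of Ier2, an immediate-early response gene, beyond the end of the gene (chr8:84655250-84657299). Its maximum log2 fold enrichment of ChIP over input, the largest among the windows of a peak and called log2 enrichment below, was 6.37. At the Ier2 promoter itself the best peak ranked 7799 with a log2 enrichment of 2.27. The next downstream member had a log2 enrichment of 5.93 and lay 3859 bp past the TSS of Cd248, which encodes a surface glycoprotein of mesenchymal cells. Its summit was inside the neighbouring gene Tmem151a, and no GLI match was found in its window. First introns held the downstream members of Micall2 (log2 enrichment 4.96, 7947 bp), Hsd11b2 (4.87, 1162 bp), which encodes an enzyme that inactivates glucocorticoids, and Dact3 (4.73, 1450 bp), which encodes an antagonist of Wnt signalling. These 3 members each ranked above the best promoter peak of their gene, at log2 enrichments of 2.22, 3.14 and 2.63.

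Hes1, a basic helix-loop-helix repressor that acts downstream of Notch, had 3 of the 30 members that ranked highest on their side. They lay 5037 bp and 3257 bp downstream of its TSS, past the gene, and 1078 bp upstream, at log2 enrichments of 4.57, 4.44 and 4.10. The best Hes1 promoter peak had a log2 enrichment of 3.38. None of these 3 windows held a GLI match, whereas a further downstream member of Hes1, in an intron 1407 bp from the TSS, held the form GACCTCCCA at a log2 enrichment of 3.92. The remaining downstream members of the 15 were at Mllt10 (4.65), Adamts1 (4.58), Tfap4 (4.56), 1700122O11Rik (4.54), the homeobox gene Hoxb4 (4.51), 4430402I18Rik (4.41), the forkhead gene Foxs1 (4.28) and Crocc2 (4.13).

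The highest ranked upstream member, at rank 19 of the list, was assigned to Ptch1, which encodes the HH receptor and is itself induced by HH signalling. Its log2 enrichment was 5.04, against 6.05 for the best Ptch1 promoter peak, which ranked 2 in the list. The summit lay 7757 bp upstream of the nearest TSS of the basic set, but it was in an exon of the comprehensive GENCODE M21 set and 106 bp from a protein-coding TSS of Ptch1 listed only there. It is thus a flanking peak under 1 annotation set and a promoter peak under the other. The same held for Lmna (246 bp), Nfatc4 (413 bp) and Fli1 (326 bp) upstream and for Adamts1 (74 bp) and Tfap4 (50 bp) downstream, 6 of the 30 in all. Others of the 30, at Cd248, Mllt10, Spen, Bahcc1 and Igf2bp1, had the TSS of a noncoding gene or transcript within 1 kb in the basic set. Among all 2034 members, 111 were within 1 kb of a protein-coding TSS of the comprehensive set, 41 of them upstream and 70 downstream.

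The other upstream members of the 15 were at genes of varied function. Cdk6, a kinase that drives entry into S phase, had the longest member of the set at 3050 bp, with its summit 1296 bp upstream and a log2 enrichment of 4.75. The intervals of the Cdk6 and Igf2bp1 members included the TSS from which their distance was measured, so these peaks also covered a start site. The peak near Spen, a transcriptional corepressor, reached 4.54 at 7330 bp. Members lay 1071 bp upstream of Hoxd12, a posterior Hox gene of the digit territory, at 4.31 and 1532 bp upstream of Id2, an inhibitor of basic helix-loop-helix factors, at 4.07. Lmna (4.83), Nfatc4 (4.66), Fli1 (4.43), Kctd1 (4.37), Reep5 (4.25), Tmem119 (4.18), Bahcc1 (4.13), Irf2bpl (4.08) and Igf2bp1 (4.05) completed the group. Of the 12 upstream members of the 15 whose gene also had a promoter peak, 10 ranked above it, and of the 10 such downstream members all 10 did. These members were picked for their high rank, and among all 1303 members with such a promoter peak 407 ranked above it (31.2%).

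**Figure D1:**
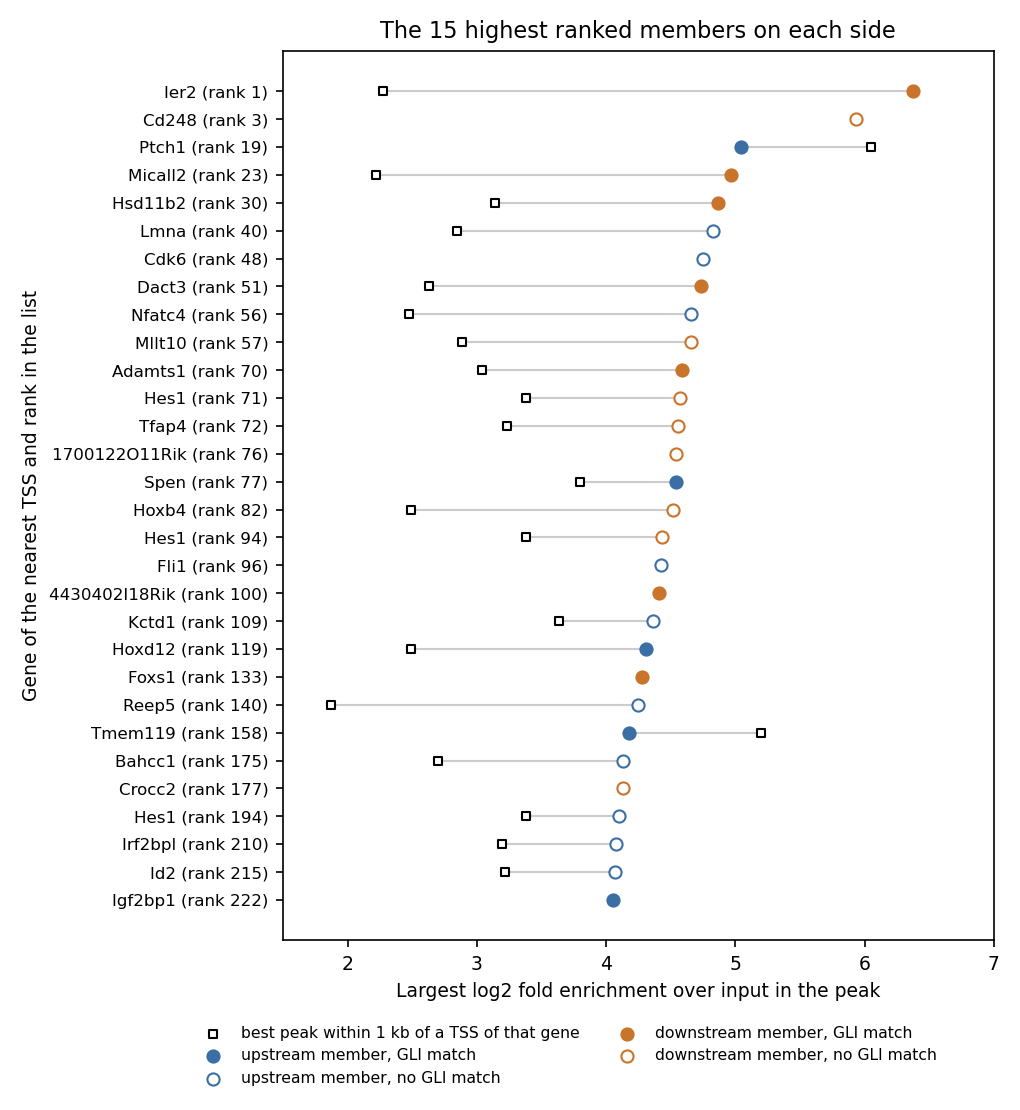
Log2 enrichment over input of the 15 highest ranked upstream and 15 highest ranked downstream members, as circles (blue upstream, orange downstream, filled with a GLI match), with squares for the best promoter peak of the same gene where one is listed. Ier2 stands highest at 6.37, and the Ptch1 and Tmem119 promoter peaks, at 6.05 and 5.20, lie above their flanking peaks.

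Below these leaders enrichment was lower. An FDR under 0.05, the q-value of the authors' peak caller, was taken as a call, and 789 of 2034 members passed it (38.8%, 95% Wilson interval 36.7 to 40.9), against 42.7% of all listed autosomal peaks. Wilson and Poisson intervals here cover counting error over peaks only. Upstream, 353 of 903 members were called (39.1%), and downstream 436 of 1131 (38.5%), an odds ratio of 1.02 with a 95% interval of 0.855 to 1.22 (two-sided exact test by Fisher's method, adjusted p = 0.877 by the Benjamini-Hochberg method over 15 tests). The called share was 43.4% upstream and 35.9% downstream at 1 to 2 kb and 36.9% and 42.3% at 5 to 10 kb, values not tested against each other, and with a lower limit of 2 kb the odds ratio was 0.892. Peaks within 1 kb of a TSS were called more often, at 46.6% of 7660 (odds ratio 0.727 for flanking peaks, interval 0.658 to 0.804, exact test, adjusted p = 1.76e-09). Against non-exonic peaks beyond 10 kb, called at 39.9% of 6557, the odds ratio was 0.953 with an interval of 0.861 to 1.06 (exact test, adjusted p = 0.496).

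The median log2 enrichment was 2.19 upstream (interquartile range 1.99 to 2.55) and 2.17 downstream (1.96 to 2.51), beside 2.28 within 1 kb, 2.19 beyond 10 kb and 2.23 over all listed autosomal peaks. These medians are descriptions with no test. Members had a median length of 250 bp. The lowest called member had a log2 enrichment of 2.31, and so, after rounding, had the highest member that was not called. Members numbered 125 of the 994 autosomal peaks among the 1000 highest ranked of the list, 61 upstream and 64 downstream. They numbered 19 among the 100 highest ranked. Members made up 12.1% of all listed autosomal peaks, and neither count was tested against that share.

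The limits of the set cut through peaks of ordinary strength. Just inside the lower limit, Lmo4 had a peak upstream (log2 enrichment 1.90) and Peg10 a peak downstream (1.99), each 1 bp past 1 kb. Just outside it were peaks of the Notch ligand gene Jag1, 998 bp upstream (2.67), and of Zfp704, 998 bp downstream (2.28). At the upper limit, Gm4559 at 9999 bp upstream (2.79) and Mecom at 9967 bp downstream (2.16) were inside, and Btn2a2 at 10055 bp upstream (2.81) and Upf1 at 10039 bp downstream (2.49) were outside.

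Peaks thinned out over the first few kb from the TSS on either side, and not equally. To compare sides, counts were divided by the non-exonic DNA at each distance. Upstream there were 5.99 peaks per Mb (95% Poisson interval 5.60 to 6.39, over 150.8 Mb), and downstream 6.99 per Mb (6.59 to 7.41, over 161.8 Mb). The upstream density was 0.856 times the downstream density (two-sided exact binomial test, p = 0.000494, adjusted p = 0.000823). Beyond 10 kb the density was 3.37 per Mb (3.29 to 3.45).

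Upstream the density was 2.94 per Mb (2.15 to 3.92) at 6 to 7 kb and 4.25 per Mb (3.22 to 5.49) at 9 to 10 kb, with overlapping intervals, and downstream it was between 3.90 and 4.83 per Mb in each bin from 4 kb on. The difference between sides was largest next to the promoter. From 1 to 2 kb, the 267 upstream peaks gave 12.8 per Mb (11.3 to 14.4) and the 393 downstream peaks 19.5 per Mb (17.6 to 21.5), a ratio of 0.658 (exact binomial p = 1.09e-07). From 2 to 5 kb the ratio was 1.03 (357 and 362 peaks, exact p = 0.737), and from 5 to 10 kb it was 0.834 (279 and 376 peaks, p = 0.0231). These bands were chosen after the data had been seen. Taking only the annotated 5′ end of each gene as its TSS moved the overall ratio to 0.530, and keeping only peaks with an FDR under 0.05 left it at 0.868 with an adjusted p of 0.0939. With a lower limit of 2 kb it was 0.938 with an adjusted p of 0.368.

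**Figure D2:**
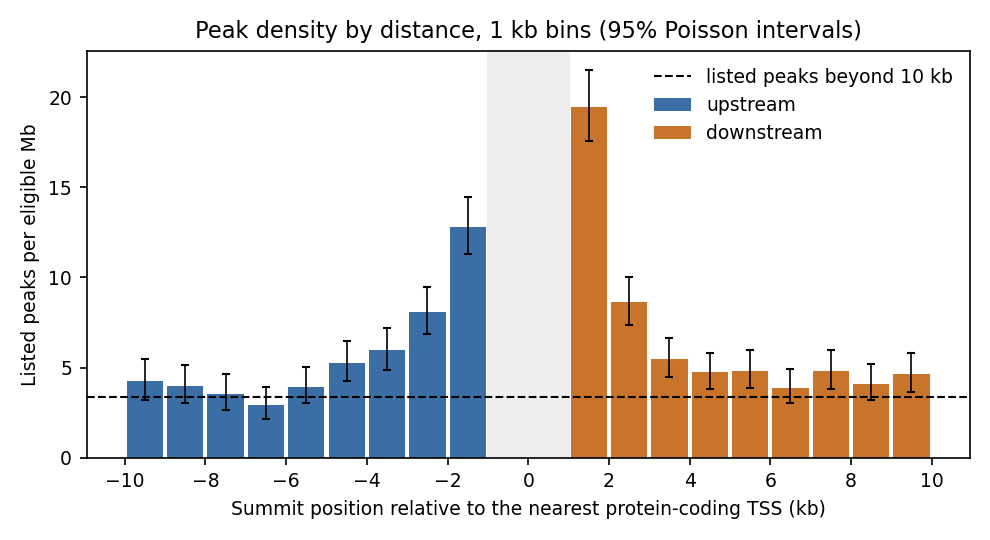
Listed GLI3 peaks per Mb of non-exonic DNA in 1 kb bins from 1 to 10 kb upstream and downstream of the nearest protein-coding TSS, with 95% Poisson intervals and a dashed line at the density beyond 10 kb. Density is highest in the first bin on each side, at 12.8 per Mb upstream and 19.5 downstream, and reaches its lowest value of 2.94 per Mb from 6 to 7 kb upstream.

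Downstream members were mainly intronic. The first intron of the transcript held 645 of the 1131 and later introns 265, while 187 lay past the end of the transcript between protein-coding genes and 20 past it in another such gene. The remaining 14 were in the gene but outside that transcript. Upstream, 650 of 903 were between protein-coding genes, 207 were inside the same gene ahead of a later TSS, and 46 were in another protein-coding gene. A TSS of any other annotated transcript, such as a long noncoding RNA, lay within 1 kb of 101 upstream summits (11.2%) and 75 downstream summits (6.63%), an odds ratio of 1.77 (interval 1.30 to 2.42, Fisher's exact test, adjusted p = 0.000632). By the same exact test, the odds ratio was 1.45 (adjusted p = 0.209) among peaks with an FDR under 0.05 and 1.29 (adjusted p = 0.146) with gene 5′ ends. The peak intervals of 147 members reached to within 1 kb of a TSS, 153 overlapped an exon, and 102 summits were in an exon of the comprehensive set.

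GLI matches were present in 178 upstream members (19.7%, 17.2 to 22.4) and 238 downstream members (21.04%, 18.8 to 23.5), an odds ratio of 0.921 with an interval of 0.741 to 1.15 (Fisher's exact test, adjusted p = 0.59). Over both sides the share was 20.5%, higher than the 15.1% of peaks within 1 kb of a TSS (odds ratio 1.44, interval 1.27 to 1.63, exact test, adjusted p = 4.7e-08). Peaks within 1 kb had a median GC content of 65.1% in that window, against 53.1% in the flanking peaks, and with GC content in 5 strata the odds ratio was 1.33. Beyond 10 kb the share was 20.3% (odds ratio 1.01, interval 0.891 to 1.14, exact test, adjusted p = 0.9).

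Each summit was then compared with a window of the same size placed 2 kb farther from its TSS. Upstream, a match occurred in 19.7% of summit windows and 10.2% of the farther windows, with 153 pairs matched only at the summit and 67 only farther out (two-sided exact McNemar test, ratio 2.28, adjusted p = 1.94e-08). Downstream the shares were 21.04% and 11.3%, with 213 and 103 such pairs (exact test, ratio 2.07, adjusted p = 2.2e-09). Median GC content was 53.1% at summits and 46.5% farther out. Among pairs within 5 percentage points of GC the ratios were 1.63 upstream (exact p = 0.021) and 2.17 downstream (p = 0.000104), a comparison added after the data had been seen.

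Matches also gathered at the summit. The central 101 bp held 127 matches and the 202 bp lying 150 to 250 bp away held 136, so the density per bp was 1.87 times higher at the centre (exact binomial test, adjusted p = 1.19e-06). That test takes each match as independent, although some members held more than 1. The ratio was 1.67 upstream and 2.03 downstream, beside 1.48 for peaks within 1 kb and 2.26 beyond 10 kb, values that were not tested against each other. The exact consensus was present in 59 members (2.90%), 24 upstream and 35 downstream, and lay within 50 bp of the summit in 20. Of the 416 members with a match, 48 had 2 or more, and the most in a member was 8.

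**Figure D3:**
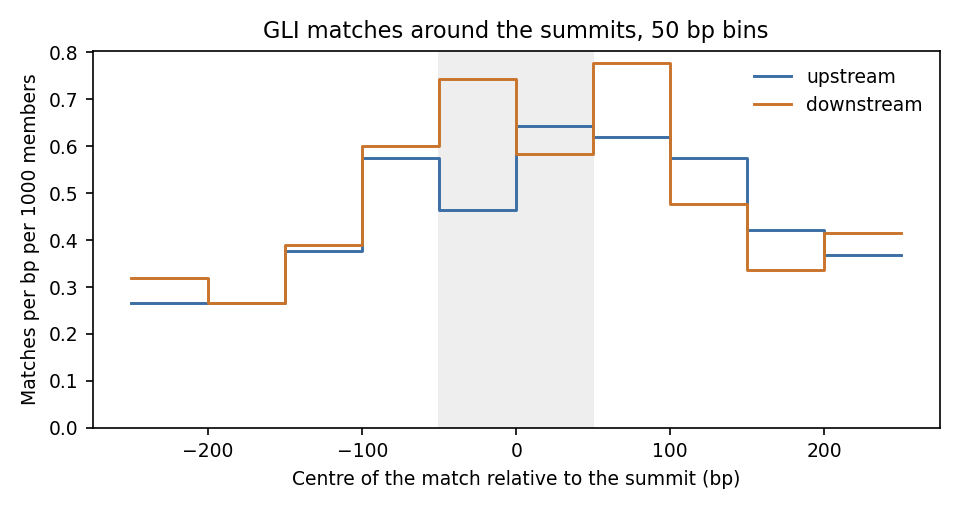
Position of GLI matches relative to the summit in upstream and downstream members, as matches per 1000 peaks per bp in 50 bp bins. Bins within 100 bp of the summit hold 0.465 to 0.778 matches per 1000 peaks per bp, and bins more than 150 bp away hold 0.265 to 0.421.

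Most matches differed from the consensus by 1 base, and some forms were far commoner than others. The match nearest to the summit was the exact GACCACCCA in 56 members, and GCCCACCCA (A2C) in 48, GGCCACCCA (A2G) in 42 and CACCACCCA (G1C) in 33. GACCTCCCA (A5T) and GACCACACA (C7A) each occurred in 26. Positions are counted from 1 at the 5′ end of the consensus, with the consensus base first. The Ier2, Adamts1, Hoxd12 and Spen sequences shown above carry the A2C, A5T, C7A and A2G forms.

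Other short motifs were searched on both strands in the summit and farther windows of all 2034 members, whether or not these held a GLI match, with p-values adjusted over 9 motifs. The GC box GGGCGG, read by SP and KLF factors, occurred in 40.3% of summit windows and 13.5% of farther windows (50.2% of all listed peaks, exact McNemar test, adjusted p = 3.3e-82). The ETS motif CCGGAAG occurred in 5.90% and 2.31% (11.2% of all listed, exact test, adjusted p = 2.33e-08). The core AGNGGGCGC of the CTCF motif, which has the letters GGGCG in common with the GC box, occurred in 3.59% and 1.03% (4.88% of all listed, exact test, adjusted p = 1.5e-07). A comparison with windows moved 2 kb toward the TSS sets summits against promoter DNA in many pairs, since the window of the 267 upstream and 393 downstream members at 1 to 2 kb crosses the TSS. Against these windows, the ratio of pairs matched only at the summit to pairs matched only in the other window was 1.04 for ETS, 1.01 for the CTCF core and 1.54 for the GC box, of which only the GC box passed (exact test, adjusted p = 3.2e-09).

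The other motifs were less frequent at the summit or did not pass the threshold. The E-box form CATNTG occurred in 60.0% of summit windows and 69.8% of farther ones (53.9% of all listed, exact test, adjusted p = 2.49e-10), and the AP-1 motif TGANTCA in 9.59% and 12.4% (8.48% of all listed, adjusted p = 0.00899). The homeodomain core TAATTA was in 14.01% and 15.0% (12.6% of all listed), the HOX/PBX form TGATTNAT in 6.39% and 6.49% (6.33%), CCAAT in 46.0% and 46.7% (44.6%), and the cAMP response element TGACGTCA in 0.737% and 0.393% (1.67%), all with adjusted p above 0.3. Against the nearer windows the E-box ratio was 1.09 and the AP-1 ratio 0.95, neither past the threshold, and TAATTA was higher at the summit (1.51, exact test, adjusted p = 0.000126). GC content differed between summit and farther windows, as given above. In pairs of like GC, added after the data had been seen, only the GC box (ratio 2.26), TAATTA (1.76, exact test, adjusted p = 0.000631) and TGATTNAT (1.68, adjusted p = 0.0463) passed, each higher at the summit.

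CpG islands divided the set nearly evenly. An island was called when a 200 bp stretch of the window within 250 bp of the summit had a GC content of at least 0.5 and an observed to expected CpG ratio above 0.6. Upstream, 426 members met this (47.2%), and downstream 499 (44.1%), an odds ratio of 1.13 with an interval of 0.949 to 1.35 (Fisher's exact test, adjusted p = 0.268). This comparison changed with the setting, to 1.4 among peaks with an FDR under 0.05 (exact test, adjusted p = 0.0469), 1.44 with a lower limit of 2 kb (adjusted p = 0.00174) and 0.694 with gene 5′ ends (adjusted p = 0.000148). Peaks within 1 kb of a TSS met it in 94.4% of cases (odds ratio 0.0492 for flanking peaks, with a p too small to be represented), and peaks beyond 10 kb in 16.4% (odds ratio 4.26, interval 3.82 to 4.75, exact test, adjusted p = 7.22e-147). The island share fell with distance, from 56.6% at 1 to 2 kb to 36.2% at 5 to 10 kb upstream and from 62.1% to 32.2% downstream.

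Members with and without an island differed in their other features, given here as descriptions. The 925 members with an island were called in 43.1% (40.0 to 46.3) and held a GLI match in 17.3% (15.0 to 19.9), and the 1109 without one were called in 35.2% (32.4 to 38.02) and held a match in 23.1% (20.7 to 25.7). A promoter peak at the same gene was listed for 72.9% of the first and 56.7% of the second. The exact consensus was present in 1.73% with an island and 3.88% without. The Hes1, Cdk6 and Id2 windows shown above are of the first kind, and the Hsd11b2 and Dact3 matches lie in windows of the second.

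**Figure D4:**
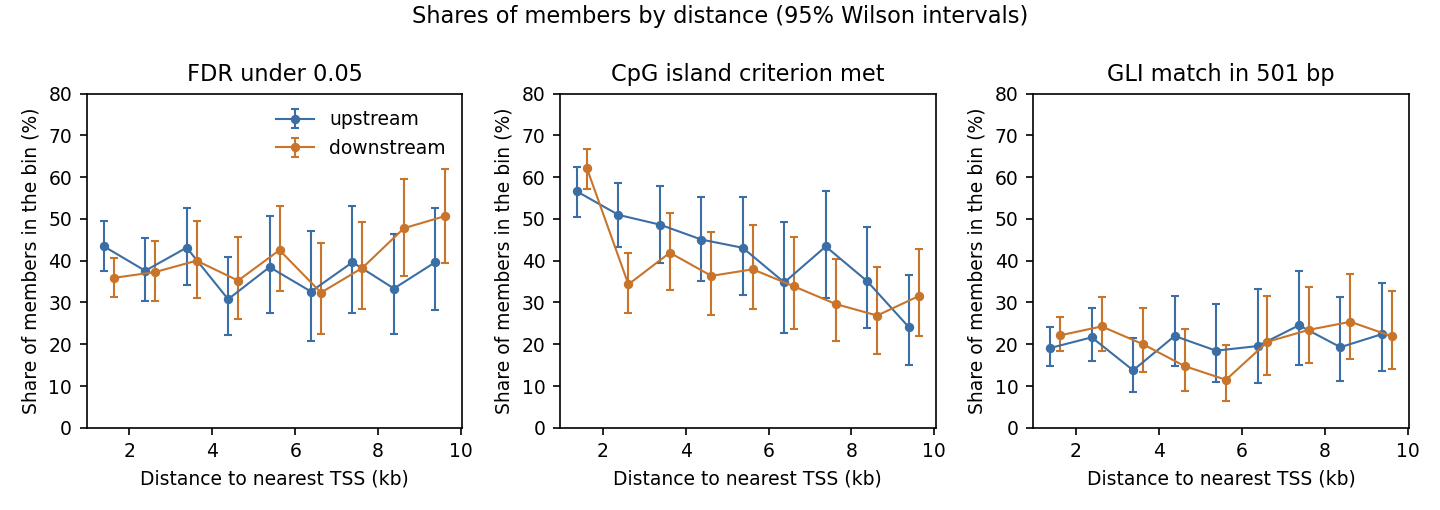
Share of members with an FDR under 0.05, meeting the CpG island criterion and with a GLI match, in 1 kb bins of distance upstream (blue) and downstream (orange), with 95% Wilson intervals. The island share falls from 56.6% to 36.2% upstream and from 62.1% to 32.2% downstream between the bands of 1 to 2 kb and 5 to 10 kb, while the GLI match share over each side is 19.7% and 21.04%.

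Flanking peaks were set beside peaks at the promoter of the same gene. Such a promoter peak was listed for 573 upstream members (63.5%) and 730 downstream members (64.5%), an odds ratio of 0.954 with an interval of 0.795 to 1.14 (Fisher's exact test, adjusted p = 0.741). The share was 49.6% for peaks beyond 10 kb and 74.6% for all listed autosomal peaks, which include the promoter peaks themselves. With TSSs of all transcripts the odds ratio between sides was 0.785 (exact test, adjusted p = 0.00208). The 95% interval of the 31.2% of these 1303 members that ranked above the best promoter peak of their gene was 28.8 to 33.8. The median log2 enrichment was 2.17 for the flanking peaks and 2.56 for their best promoter peaks. The flanking peak ranked higher in 38.8% of cases with a GLI match and 29.4% of those without.

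The 2034 members were assigned to 1257 of 20720 autosomal protein-coding genes (6.07%), and called members to 609 genes (2.94%). A single member was found for 844 genes, 2 for 229 and 3 or more for 184, and 165 genes had members on both sides. A promoter peak was listed for 57.0% of the 1257 genes and for 29.5% of the 19463 without a member. Ebf3, which encodes a transcription factor of the early B-cell factor family, was among the genes with most members. It had 5 upstream and 5 downstream, and 3 of the 10 were called, beside 38.8% over all members.

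Rara, Id3 and Cbx8 each had 8 members, whose called counts stand beside the same share. Rara encodes a retinoic acid receptor, and 5 of its members were called, the strongest with a log2 enrichment of 3.97 in an intron. For Id3, an inhibitor of basic helix-loop-helix factors like Id2, 6 were called, with the strongest at 3.95, 4510 bp downstream. All 8 members of Cbx8, which encodes a Polycomb protein, lay upstream, and 3 were called. Foxa1 also had 8, with 1 called, and came after these by the rank of its best peak.

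Genes known in the limb and in HH signalling were read through lists chosen with earlier results of these data known, so their counts are given beside those of all genes, with no test. Of 20 HH pathway genes, 5 had a member (25%, against 6.07% of all genes) and 3 a called one (15.0%, against 2.94%). They included Ptch1 and Hhip, which encodes a protein that binds and blocks HH ligands. Besides the rank 19 peak, Ptch1 had a called member in an intron 5798 bp downstream (2.61), and Hhip had one 9509 bp downstream (2.53).

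Most limb patterning factors had a member, though many of these peaks were weak. Of 38 such genes, 33 had a member (86.8%, against 6.07% of all genes), with 49 members upstream and 50 downstream, and 16 had a called one (42.1%, against 2.94%). Of the 99 members 26 were called, beside 789 of all 2034. The strongest after Hoxd12 were at Prrx1, a homeobox gene of limb mesenchyme, 1317 bp upstream (3.92), and Sall4, a zinc finger gene, 1677 bp downstream (3.47). The Sall4 summit was 106 bp from a TSS of the comprehensive set. Other genes of this list with a called member included Foxf1, Hand1, Hand2, Hoxa11, Hoxd11, Lhx2, Lhx9, Lmx1b, Osr1, Prrx2, Tbx15 and Tbx2. These are homeobox, T-box, forkhead and other transcription factor genes, and a promoter peak was listed for 32 of the 38 (84.2%, against 31.1% of all genes).

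Genes of BMP, FGF, Wnt and Notch signalling had 7 members upstream and 26 downstream, where 1131 of all 2034 members were downstream, and the sides were not tested for this list. Bmp7 held 5 of the 26, Hes1 4 and Wnt5a 3. Of 28 genes, 13 had a member (46.4%, against 6.07% of all genes) and 9 a called one (32.1%, against 2.94%), which were Bmp7, Dusp6, Fgfr1, Hes1, Jag2, Lef1, Notch1, Spry2 and Wnt5a. The called Fgfr1 summit was 680 bp from a TSS of the comprehensive set. Chondrogenic and connective tissue genes had a member in 9 of 14 cases (64.3%, against 6.07%) and a called one in 6 (42.9%, against 2.94%). Col1a1, a collagen gene, had a member 7122 bp upstream (3.86), Runx3, a Runt factor of skeletal cells, one 5489 bp upstream (3.25), and Sox9, the master regulator of cartilage, one 1568 bp downstream (3.09). The other called genes were Scx, Sox5 and Sp7.

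Of 14 genes of the cell cycle and growth, 7 had a member (50%, against 6.07% of all genes), and each of the 7 had a called one (against 2.94%). These were the cyclin genes Ccnd1, Ccnd2 and Ccnd3 together with Cdk6, Cdkn1b, Myc and Mycn. The called Ccnd3 summit was 214 bp from a TSS of the comprehensive set. After Cdk6, the strongest were 2327 bp upstream of Ccnd2 (3.84) and 1613 bp upstream of Ccnd1 (3.65). Among 20 immediate-early genes 9 had a member (45.0%) and 4 a called one (20%), beside the same 6.07% and 2.94%, namely Ier2, Jund, Nr4a1 and Zfp36. After the Ier2 peak that leads the list came Jund at 6887 bp upstream (3.16) and a second Ier2 member at 1225 bp upstream (3.06).

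Lists of housekeeping and adult genes had no members. Of 20 ribosomal protein genes 0 had one, which allows a share of up to 15.0%, and 9 had a listed promoter peak (45.0%, against 31.1% of all genes). Of 18 genes of adult tissues other than limb 0 had a member, which allows up to 16.7%, and 0 had a promoter peak. The 6.07% of all genes lies under both limits, so these lists are not shown to differ from all genes.

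**Figure D5:**
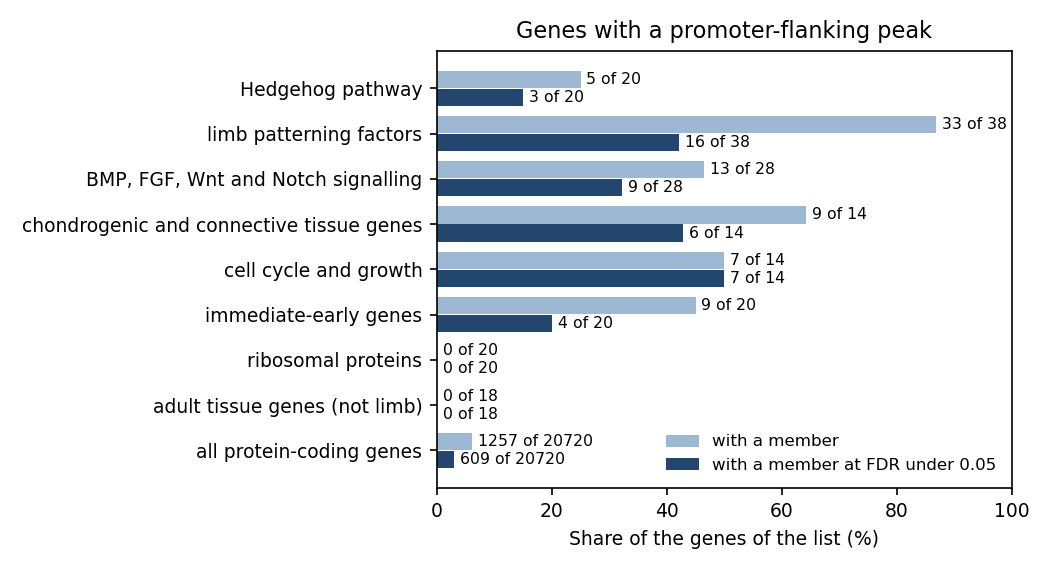
Share of the genes in each list that have a flanking peak at any FDR (light bars) and at an FDR under 0.05 (dark bars), beside all 20720 autosomal protein-coding genes. At any FDR, limb patterning factors stand highest at 86.8%, ribosomal protein and adult tissue genes are at 0, and all genes are at 6.07%.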

How the data were processed

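GLI3-FLAG ChIP-seq of E10.5 forelimb buds comprised 2 ChIP libraries and 1 input. The submitters' processing notes name Bowtie2 2.2.5 and mm10, and the study's methods name CisGenome and both replicates for peak calling. The deposited list is attached to ChIP replicate 1 and was treated as a joint call. The authors give each peak an FDR (a q-value), a maximum log2 fold enrichment over input, a T score that sets the rank, and the −log10 of a Poisson p-value, which stops at 100. The depth of each library is unknown here, and no peak end lay beyond its chromosome (0 peaks).

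From the list, classes, densities, sequence matches and tests were computed with Python 3.11.15, numpy 2.4.6, pandas 2.3.3, scipy 1.17.1, statsmodels 0.14.6 and matplotlib 3.10.9. Sequence was read from GRCm38 and genes from GENCODE M21 (basic set). Odds ratios have 95% Wald intervals. Fisher's, binomial and McNemar tests were exact and two-sided. They were adjusted over 15 tests, except that the other motifs were adjusted over 9. The p-values of distance bands and of GLI matches in pairs of like GC are given unadjusted. Fisher's and McNemar tests and the density ratio were tried on simulated data, and the binomial tests were not. The log2 and −log10 values were not tested.

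Named genes were those of the 15 highest ranked members per side, of peaks at the distance limits, of listed genes with a called member, and of the 5 genes with most members. Some results under this rule are not reported here. Tmem151a and Foxa1 were named after their values were seen. The members and gene lists were chosen with earlier results of these data known. Alternatives changed the FDR, TSS set, exon set, lower limit (2 kb), motif, window, CpG definition and chromosomes.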

Additional observations from a re-analysis of the deposited data

How the results depend on the processing

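No paired analysis was possible because no value per replicate is given in the list, which was treated as a joint call, and leaving out each replicate was not run for the same reason. Of 146 alternatives to 17 results, 120 kept direction and side of the threshold or, for counts, stayed within 1.5 times the main value, 12 of all being chosen after seeing the data, and 14 of the 16 that turned direction had adjusted p of at least 0.05 on either setting. The test of noncoding TSSs has no value with TSSs of all transcript types.

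Using only peaks with an FDR under 0.05, the number of members was 789, the density ratio 0.868 (exact test, adjusted p = 0.0939), the odds ratio for GLI matches against peaks beyond 10 kb 0.951, and the upstream to downstream odds ratios 1.4 for islands (adjusted p = 0.0469), 1.03 for promoter peaks and 1.45 for noncoding TSSs (adjusted p = 0.209). With a lower limit of 2 kb the density ratio was 0.938 (exact test, adjusted p = 0.368), the called odds ratio between sides 0.892, that for GLI matches against peaks beyond 10 kb 0.995, and that for islands 1.44 (adjusted p = 0.00174). In the 2 to 5 kb band the density ratio was 1.03.

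With gene 5′ ends as TSSs, the odds ratios between sides were 1.20 for GLI matches, 0.694 for islands (exact test, adjusted p = 0.000148), 1.07 for promoter peaks and 1.29 for noncoding TSSs (adjusted p = 0.146). The island result is therefore of either direction depending on the TSS set. With TSSs of all transcripts they were 0.972 for islands, 0.785 for promoter peaks (exact test, adjusted p = 0.00208) and 1.04 for calls against peaks beyond 10 kb. With 1 peak per cluster they were 1.06 for those calls and 1.03 for promoter peaks. GLI matches against peaks beyond 10 kb gave 0.995 with chromosomes X and Y, 0.885 with the exact consensus, 0.943 in windows of 100 bp on either side and 0.934 in GC strata. With the exact consensus, the ratio of pairs matched only at the summit to those matched only farther out was 8 upstream and 8.75 downstream. The ratio of match density at the centre to the edge was then 4.4, and the odds ratio against peaks within 1 kb was 2.63. Of the 9 other motifs, 5 passed against farther windows, 2 against nearer windows (the GC box and TAATTA) and 3 in pairs of like GC. The cause of these changes was not tested, except that several alternatives hold fewer peaks by construction.

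The list holds no read counts, so no depth limit can be given for single peaks. Absence from the list does not show absence of binding.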
